A study of Mus musculus with 4 samples.

Results

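The genes Eya1, Eya2, Eya3, Eya4 and Dach1 encode cofactors of the Six-family homeodomain transcription factors. Pax7 peaks were assigned to a gene when the summit lay between 100 kb before its start and 100 kb beyond its end in the GENCODE vM1 annotation of mm9. This rule, which uses position alone, gave 31 of the 20579 Pax7 peaks: 5 at Eya1, 11 at Eya2, 1 at Eya3, 12 at Eya4 and 2 at Dach1. The peaks came from iPax7 muscle progenitors, which are mouse ES cells differentiated as embryoid bodies in serum and carrying a Pax7 transgene that doxycycline (Dox) switches on. Dox was given at 1 µg/ml from day 3, PDGFRα+FLK1- cells were sorted on day 5 and expanded with Dox and 10 ng/ml basic FGF, and chromatin was taken on day 9, after 6 days of Dox. All 4 libraries, 2 of Pax7 ChIP and 2 of input, had this treatment, and no ChIP of cells without Dox was analysed here.

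The authors called the peaks on merged ChIP libraries against merged inputs. A peak therefore has no replicate error, neither the libraries behind it nor its read depth can be recovered, and no test between peaks or genes was made. Fold enrichment below is the authors' MACS2 ratio of the ChIP signal over the local background at the summit. The −log10 q next to it is the significance that MACS2 gave the peak, and its lowest value in the list was 2.07. The list holds no expression values, so the identity of the cells was not checked against marker genes.

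Eya proteins do not bind DNA themselves. They join Six-family proteins on DNA as coactivators, and they also carry a protein phosphatase domain. Dach proteins, which belong to the same family as the corepressors Ski and Skil, can turn Six-dependent activation into repression. In the somites of mouse embryos, Eya1 and Eya2 act upstream of Pax3 and of the myogenic regulatory factors.

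The sequences at the strongest peak of each gene show what Pax7 ChIP recovered there. Each line gives the 101 bases centred on the summit, on the plus strand of mm9, 5′ to 3′. Capitals mark a Pax motif or the E-box CAGCTG, the motif of myogenic bHLH factors, and a line without capitals has neither.
Eya1, 10.47-fold, chr1:14293659-14293759: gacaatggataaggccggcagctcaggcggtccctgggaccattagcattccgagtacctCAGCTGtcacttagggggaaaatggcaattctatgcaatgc
Eya2, 11.55-fold, chr2:165390263-165390363: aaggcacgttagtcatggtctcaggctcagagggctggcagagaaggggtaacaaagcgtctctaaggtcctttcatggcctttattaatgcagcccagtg
Eya3, 6.58-fold, chr4:132215116-132215216: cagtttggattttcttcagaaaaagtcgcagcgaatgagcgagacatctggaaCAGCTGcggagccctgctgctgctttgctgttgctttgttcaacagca
Eya4, 13.43-fold, chr10:22846564-22846664: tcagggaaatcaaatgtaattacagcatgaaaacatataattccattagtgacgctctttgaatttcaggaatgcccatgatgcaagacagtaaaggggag
Dach1, 5.93-fold, chr14:98144314-98144414: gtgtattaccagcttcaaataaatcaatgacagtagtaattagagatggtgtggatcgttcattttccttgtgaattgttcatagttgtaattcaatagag

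The other sequences shown are those of the 4 peaks, 2 at Eya2 and 2 at Eya4, that held a Pax motif within 50 bp of the summit. The motifs searched on both strands were the paired-box core GTCACG, the combined paired and homeobox sequence ATTAGTCAC or ATTAGTCAT, and the homeodomain dimer, which is TAAT and ATTA with any 2 bases between. A match on the minus strand appears below as its reverse complement, so that the core reads CGTGAC.
Eya2, 5.44-fold, chr2:165385396-165385496: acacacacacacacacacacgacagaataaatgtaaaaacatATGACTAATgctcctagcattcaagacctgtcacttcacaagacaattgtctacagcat
Eya2, 5.40-fold, chr2:165456062-165456162: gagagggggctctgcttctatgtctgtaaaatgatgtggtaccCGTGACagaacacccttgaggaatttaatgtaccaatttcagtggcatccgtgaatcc
Eya4, 6.80-fold, chr10:22911203-22911303: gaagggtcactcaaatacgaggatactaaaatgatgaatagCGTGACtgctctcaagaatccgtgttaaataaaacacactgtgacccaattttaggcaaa
Eya4, 4.20-fold, chr10:22923387-22923487: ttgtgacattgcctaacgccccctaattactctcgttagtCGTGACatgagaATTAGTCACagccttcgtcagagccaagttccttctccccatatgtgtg

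The peaks with a Pax motif were not the strongest ones. Their fold enrichments were 5.44, 5.40, 6.80 and 4.20. In each, the middle of a match was within 10 bp of the summit. The 5.44-fold Eya2 peak held the combined sequence on the minus strand 4.0 bp from the summit, and the 5.40-fold Eya2 peak held the core 4.5 bp from it. At Eya4, the 6.80-fold peak held the core 6.5 bp from the summit. The 4.20-fold Eya4 peak was the only 1 of the 31 with matches to both, the core 7.5 bp to one side of the summit and the combined sequence 6.0 bp to the other. None of the 3 peaks above 10-fold, at Eya1, Eya2 and Eya4, held an exact match to a Pax motif. Of all peaks of at least 10-fold, 23.6% did, but 3 peaks are too few to read a difference from that share. The absence says only that these exact letters were not in the window, and near matches were not counted.

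In all, 4 of the 31 peaks (12.9%) held a Pax motif, close to the 13.7% of all peaks. In windows 500 bp to either side, the share was 1 of 62 (1.61%) at these genes and 1.72% over all peaks. The core was found in 3 of the 31, in 11.1% of all peaks and in 1.28% of the windows beside all peaks. For the combined sequence these values were 2 of the 31, 2.1% and 0.16%, and for the homeodomain dimer 0 of the 31, 0.831% and 0.294%. Both Eya genes with a core, Eya2 and Eya4, also had 1 peak each with the combined sequence. At Eya2 that peak was 95.4 kb upstream and nearer to the start of another gene, Slc2a10, so its target cannot be told from position. The E-box was in 5 of the 31 (16.1%), namely in 1 peak each at Eya1, Eya2 and Eya3 and in 2 at Eya4, against 15.7% of all peaks and 4.56% of the flanking windows. The sequence TCAGGTT, the core of the MEF3 element to which Six-family proteins bind, was in 0 of the 31, in 1.33% of all peaks and in 1.63% of the windows beside them. A control hexamer, GCACTG, was in 3 of the 31, the same count as the core. It was in 6.86% of all peaks and in 5.81% of the windows beside them.

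**Figure D1:**
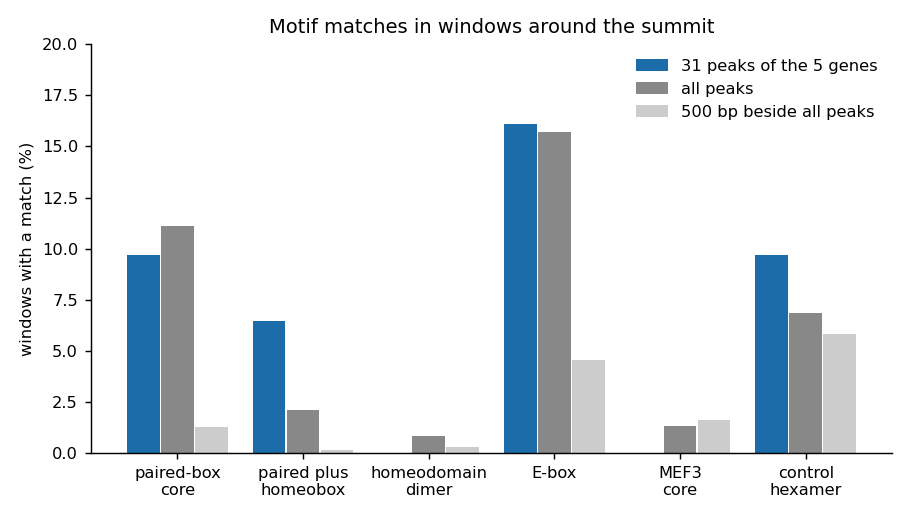
Share of 101-bp windows with a match to each motif, in percent, for the 31 peaks of the 5 genes, for all 20579 peaks and for windows 500 bp to either side of all peaks. The paired-box core and the E-box stand at 9.68% and 16.1% in the 31 peaks, near the 11.1% and 15.7% of all peaks. The control hexamer also stands at 9.68% in the 31 peaks, against 6.86% of all peaks.

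The 5 genes differed widely in how many peaks they held. Since longer genes have longer windows, the counts were also divided by window length. Eya2 had 34.8 peaks per Mb, a higher value than 97.5% of the 22350 protein-coding genes given the same kind of window. Eya4 followed with 26.9 per Mb, higher than 92.7%, and Eya1 with 14.7 per Mb, higher than 70.6%. Eya3 and Dach1, at 3.5 and 3.43 per Mb, were higher than 26.5% and 26.3%. Together the windows held 15.7 peaks per Mb, against 8.05 per Mb of the sequenced genome and a median of 9.16 per Mb over protein-coding genes. This pooled value is for the 5 genes alone. It leaves out Dach2, the paralogue of Dach1, whose window of 0.739 Mb on chromosome X held 0 peaks. At least 1 peak was present at 75.2% of protein-coding genes. At least 2 peaks, the number at Dach1, were present at 58.9%, at least 5, the number at Eya1, at 19.4%, at least 11, the number at Eya2, at 1.26%, and at least 12, the number at Eya4, at 0.877%. Eya2 and Eya4 supplied 23 of the 31 peaks. The nearest protein-coding start was that of Eya2 for 8 of its 11 peaks and that of Eya4 for all of its 12. When only the 2852 protein-coding genes of at least 85.8 kb, the length of Eya3, were considered, Eya2 exceeded 98.8% of them in peaks per Mb, Eya4 94.7%, Eya1 70.0%, Eya3 25.3% and Dach1 24.3%.

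**Figure D2:**
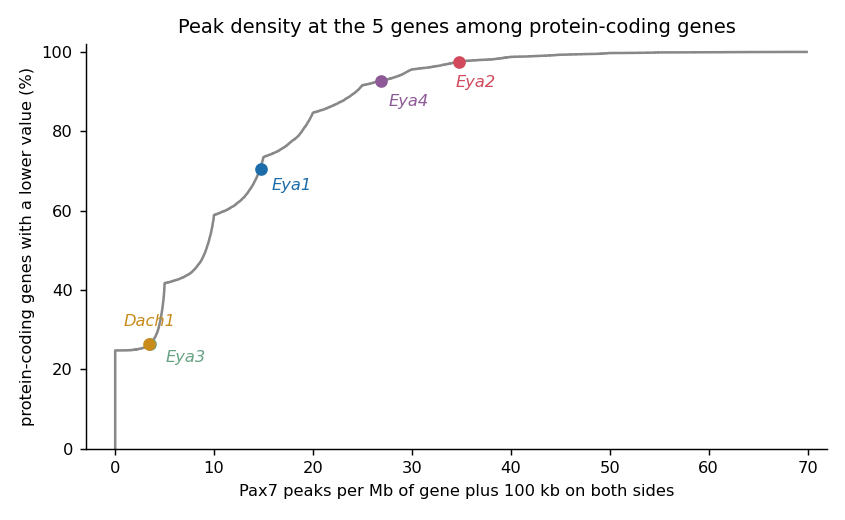
Pax7 peaks per Mb of each gene with 100 kb on both sides (x axis) and the share of protein-coding genes with a lower value, in percent (y axis). The grey line is drawn from 22350 protein-coding genes and the dots are the 5 genes, with Eya2 at 34.8 and Eya4 at 26.9 peaks per Mb near the top and Eya3 and Dach1 near 3.5 lying on each other.

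In strength, the 31 peaks resembled the list as a whole. Their fold enrichment ran from 2.88 to 13.43. The median was 5.68, with a 95% interval over the 31 peaks of 4.54 to 6.30, against 5.22 for all peaks, whose quartiles were 4.32 and 6.74. This interval treats the peaks as independent, although Eya2 and Eya4 supplied 23 of them. It measures no replicate error and is not a test against all peaks. At or above 5-fold were 20 of the 31 (64.5%), against 54.9% of all peaks, and at or above 10-fold were 3 (9.68%), against 6.99%. A −log10 q of 5 or more, which 92.7% of all peaks had, was seen in 29 of the 31. At Eya2, 10 of 11 peaks reached 5-fold and the median was 5.76, whereas at Eya4 5 of 12 did and the median was 4.45. So the gene with the most peaks held both the strongest of the 31 and the weakest. No peak of the 31 was as wide as 500 bp. The narrowest had 186 bp and the widest 446 bp, and the median width was 278 bp, against 252 bp over all peaks. The G and C content of the 101 bases at the summit had a median of 46.5%, against 45.5% over all peaks.

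**Figure D3:**
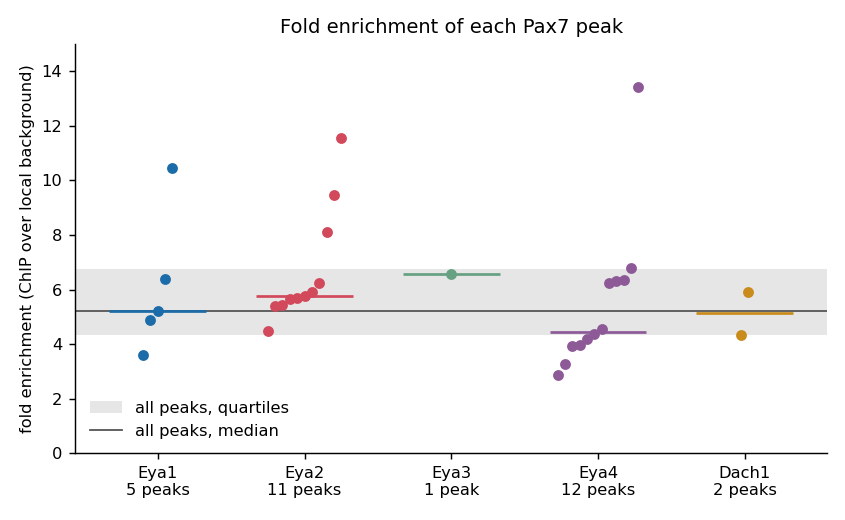
Fold enrichment of each of the 31 peaks (dots, set side by side in rising order) by gene, with the median of the gene as a short line. The grey band spans the quartiles of all 20579 peaks, 4.32 to 6.74, and the long line is their median of 5.22; 1 peak each at Eya1, Eya2 and Eya4 stands above 10.

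No summit lay within 1 kb of an annotated transcription start site (TSS), a class that held 16.3% of all peaks, and the nearest to any start was 1599 bp away, at a U6 RNA gene inside Eya4. None lay in an exon, where 2.55% of all peaks were. In introns of the gene itself were 20 of the 31 (64.5%), and the other 11 were intergenic (35.5%), 8 before the gene start and 3 beyond the gene end. Introns held 42.1% of all peaks and intergenic sequence 39.0%. Since the peaks were assigned by position around long genes, whose bodies made up 49.3% of the window length, these shares partly follow from the assignment, and nothing is read from their difference from all peaks. Each of the 5 genes had a peak inside it, as did 67.8% of the protein-coding genes of at least 85.8 kb and 22.3% of protein-coding genes of any length. The 3 peaks farthest upstream at Eya2 were nearer to the start of Slc2a10, a glucose transporter gene, than to a start of Eya2. Another summit within 5 kb was found for 13 of the 31 (41.9%), 2 at Eya1, 7 at Eya2 and 4 at Eya4, against 23.8% of all peaks. Both members of a close pair are counted, and the windows held more peaks per Mb than the genome (15.7 against 8.05). Nothing is therefore read from this difference either.

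**Figure D4:**
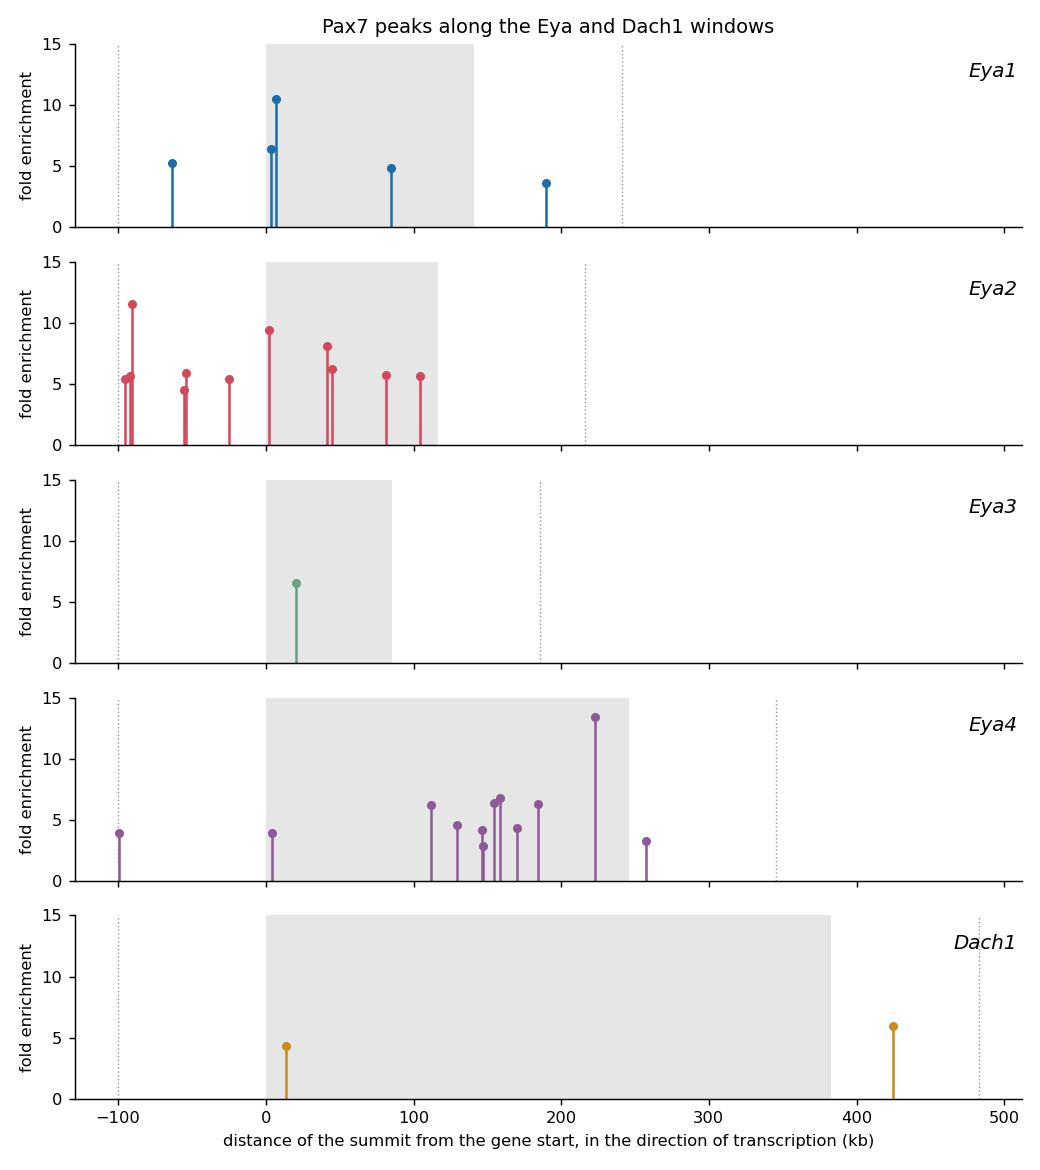
Position of each Pax7 summit relative to the gene start in the direction of transcription, in kb (x axis), and its fold enrichment (height) at the 5 genes. Grey marks the gene and dotted lines the ends of the window; Eya2 has 6 peaks before its start, whereas most of Eya4's 12 peaks lie deep inside the gene.

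Eya1, a coactivator needed for ear, kidney and muscle development, lies on the minus strand of chromosome 1 (14159035 to 14300281). Its 2 strongest peaks were close to each other and to the start of the gene. One, from 14293560 to 14293866, was 6.57 kb downstream of the start in intron 2 of the longest transcript, at 10.47-fold (−log10 q 40.9), above 94.3% of all peaks. The other, from 14296540 to 14296836, was 3.57 kb downstream in intron 1, with 6.40-fold enrichment, and the summits were 2998 bp apart. The remaining 3 peaks were scattered. A 5.23-fold peak (14363538 to 14363823) was 63.4 kb upstream, a 4.89-fold peak (14215532 to 14215721) was in intron 11, and a 3.60-fold peak (14110590 to 14110788) was 48.3 kb beyond the gene end. The E-box in the strongest Eya1 peak was 12.5 bp from the summit.

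Eya2 (chromosome 2, plus strand, 165480798 to 165597227) acts with Eya1 in the somite. Of its 11 peaks, 6 were upstream of the gene, 5 were in introns and 0 were beyond its end. The strongest, from 165390183 to 165390460, was 90.5 kb upstream at 11.55-fold (−log10 q 48.5), above 96.1% of all peaks. A 5.64-fold peak (165388915 to 165389180) lay 1243 bp from it and a 5.44-fold peak (165385350 to 165385580) 3624 bp farther out. These 3 peaks are the ones nearer to Slc2a10, whose start was 56.0 kb from the strongest, so their target cannot be told from position. A second upstream group, 54.2 and 55.6 kb from the start, comprised a 5.90-fold peak (165426473 to 165426745) and a 4.48-fold peak (165425083 to 165425288). The last upstream peak, with 5.40-fold enrichment and the paired-box core, ran from 165456019 to 165456236 and was 24.7 kb from the start.

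Inside Eya2, fold enrichment was highest near the start and lowest near the end. The first peak, from 165482982 to 165483290, was 2.35 kb downstream of the start in intron 1, at 9.45-fold (−log10 q 42.2), above 91.3% of all peaks. Next came a pair in intron 5 with summits 3637 bp apart. Of these, the peak from 165522135 to 165522428 had 8.12-fold enrichment, and the peak from 165525760 to 165526032, with an E-box 27.5 bp from its summit, had 6.24-fold. A 5.76-fold peak (165561715 to 165562015) was in intron 9. The last, a 5.68-fold peak in intron 10 (165585038 to 165585300), was 2.14 kb from the start of an internal transcript of Eya2.

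Eya4 lies on the minus strand of chromosome 10 (22823974 to 23069701), and 10 of its 12 peaks were in its introns. In humans the gene is known for inherited hearing loss and cardiomyopathy. The strongest of all 31 peaks, from 22846383 to 22846806, was in intron 12, 223 kb downstream of the gene start. Its 13.43-fold enrichment (−log10 q 88.6) was above 98.1% of all peaks and ranked 392 among the 20579. A 6.30-fold peak in intron 4 (22885026 to 22885347) lay between it and a group of 6 peaks in intron 3, whose summits spanned 41.1 kb and which was set apart after the positions had been seen. In that group, fold enrichment reached 6.80 (22911107 to 22911442) and 6.35 (22915069 to 22915496), at summits 4103 bp apart. Its other 4 peaks were lower. They were at 4.54-fold (22940272 to 22940544), 4.37-fold (22899033 to 22899429), 4.20-fold (22923240 to 22923559) and 2.88-fold (22922575 to 22922871). The 2.88-fold peak, the weakest of the 31, stood 706 bp from the 4.20-fold peak with both Pax sequences, and it exceeded 1.12% of all peaks.

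Nearer to the start of Eya4 were the remaining intronic peaks. A 6.23-fold peak in intron 2 (22957901 to 22958086) was 112 kb from the start, and a 3.96-fold peak in intron 1 (23065657 to 23065931) was 3.93 kb from it. Outside the gene, a 3.93-fold peak (23168848 to 23169183) was 99.3 kb upstream and a 3.29-fold peak (22812503 to 22812690) was 11.4 kb beyond the gene end. Both would drop out of a list restricted to 5-fold enrichment, as would 5 of the intronic peaks. Within the gene, Eya4 held 40.7 peaks per Mb and Eya2 42.9 per Mb, higher than 96.0% and 96.9% of the protein-coding genes of at least 85.8 kb, whose median was 8.38 per Mb. In the flanks, however, Eya4 held 10 per Mb and Eya2 30 per Mb.

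Eya3 (chromosome 4, plus strand, 132194902 to 132280680), a broadly expressed Eya gene, had 1 peak. It ran from 132215044 to 132215318 in intron 2, 20.3 kb downstream of the gene start and 2.55 kb from the start of an internal transcript. At 6.58-fold (−log10 q 20.9), it exceeded 73.2% of all peaks, and its E-box was 5.5 bp from the summit. The nearest other summit was 135 kb away.

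Dach1, the corepressor, lies on the minus strand of chromosome 14 (98186066 to 98568984) and is the longest of the 5 genes at 383 kb. It nevertheless held only 1 peak inside, from 98554991 to 98555236 in intron 1, 13.9 kb downstream of the start, with 4.35-fold enrichment. The other, a 5.93-fold peak from 98144156 to 98144601, was 41.7 kb beyond the gene end. The summits were 411 kb apart. With 2.61 peaks per Mb inside the gene, Dach1 exceeded 33.6% of the protein-coding genes of at least 85.8 kb, where Eya1 with 21.2 per Mb exceeded 81.7% and Eya3 with 11.7 per Mb exceeded 63.1%. Dach1 and Eya3 each held 1 peak inside, so the difference between them here follows from gene length alone.

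Near the gene start, each of the 5 genes held a Pax7 peak within the first 25 kb, a distance chosen to take in the positions already seen. These were 6 peaks, 3.57 and 6.57 kb from the start of Eya1, 2.35 kb from that of Eya2, 3.93 kb from that of Eya4, 13.9 kb from that of Dach1 and 20.3 kb from that of Eya3. Their fold enrichments were 6.40, 10.47, 9.45, 3.96, 4.35 and 6.58, so they were neither uniformly strong nor uniformly weak. Of the 2852 protein-coding genes of at least 85.8 kb, 24.1% held a peak in their first 25 kb, but because the distance was fitted to the 5 genes, nothing about them is read from that share.

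Six-family genes, whose products recruit Eya and Dach proteins to DNA, are short, so that a window around one is mostly flanking sequence. Six2 had 3 peaks, or 14.7 per Mb, Six3 had 2, or 9.17 per Mb, and Six5 had 5, or 24.5 per Mb. The windows of Six2 and Six3 overlap, so a peak can be counted for both. None of these peaks was inside Six2, Six3 or Six5. At Six5, 4 of the 5 peaks were within 1 kb of a TSS of any gene. For 0 of the 5 was Six5 the gene with the nearest protein-coding start, so these peaks are not read as binding at the Six5 promoter. Fold enrichment reached 7.20 at Six2 and Six3 and 5.76 at Six5.

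Among other relatives, Dach2, the X-linked paralogue of Dach1, had 0 peaks in a window of 0.739 Mb. Chromosome X as a whole held 243 peaks, or 1.5 per Mb, the cause of which was not tested. Ski, a corepressor of the Dach family, had 10 peaks, or 37.2 per Mb, with fold enrichment up to 12.86, and its paralogue Skil had 7, or 30.8 per Mb, with up to 10.03-fold enrichment. Ski held 4 of its peaks inside the gene and Skil 0. Sobp, a cofactor that binds Six-family proteins, had 7 peaks, or 18.8 per Mb, with up to 8.98-fold enrichment. Many of these peaks were nearer to the start of another protein-coding gene. The named gene had the nearest such start for 5 of the 10 peaks at Ski, 1 of 7 at Skil and 1 of 7 at Sobp. The target of the others cannot be told from position.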

How the data were processed

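Pax7 ChIP-seq of Dox-treated iPax7 cells was analysed from the 1 peak list made from 2 ChIP and 2 input libraries. The authors aligned the reads with bowtie2 to mm9. They dropped reads with several placements, took out duplicates (Picard), pooled the replicates and let MACS2 call peaks, with q held to 0.01. Each deposited peak has a fold enrichment (a ratio over local background), a −log10 q-value, a score and a summit. The score repeats the −log10 q on another scale and was not used, nor was the −log10 p-value. Read counts are not in the list, so depth per peak is unknown.

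Summits were placed on NCBIM37 (mm9) and GENCODE vM1, with 1-based coordinates. They were classed as within 1 kb of any TSS, then exon, intron or intergenic. Motifs were searched within 50 bp of summits and, for comparison, around points 500 bp upstream and downstream. Introns are numbered in the longest coding transcript. The same windows were counted for 22350 protein-coding genes. All peaks at a gene are named where there are 12 or fewer, which holds for the 5 genes. The members and lists were chosen with earlier results of these data known. Part of the list of related genes is not reported here. The search and the placement were tested on simulated data. Alternatives were other thresholds, merging within 500 bp, other window sizes, any overlap, genes left out and other TSS classes. Python 3.11.15, pandas 2.3.3, numpy 2.4.6, scipy 1.17.1, statsmodels 0.14.6, pysam 0.24.0 and matplotlib 3.10.9 were used.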

Additional observations from a re-analysis of the deposited data

How the results depend on the processing

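No paired analysis was possible because the peaks were called on merged libraries, and for the same reason no replicate could be left out. The peak counts, peaks per Mb, median fold enrichment and the shares at or above 5-fold, with a Pax motif and in introns were recomputed under their alternatives, 78 values in all. The positions of the genes among other genes, the neighbouring summits, the first 25 kb, the E-box and the 6-base words were not. Of these, 66 stayed within 1.5 times (counts and peaks per Mb) or within the 95% interval of the median or share over peaks, and 12 did not. With a fold enrichment of at least 5, 20 of the 31 peaks were left, with 3 at Eya1, 5 at Eya4 and 1 at Dach1. With the gene body alone there were 20, with 3 at Eya1, 5 at Eya2 and 1 at Dach1. Windows of 50 kb gave 6 peaks at Eya2. Windows of 200 kb gave 17 at Eya2 and 4 at Eya3. With a TSS class of 5 kb, 45.2% of the peaks were in introns of the gene itself, in place of 64.5%. These moves follow from fewer peaks, other window lengths or a wider TSS class. The median fold enrichment and the share with a Pax motif stayed within their intervals under every alternative run for them, each gene left out included. The share ran from 10.0% to 16.3%, inside an interval of 5.13% to 28.9%. The alternatives mostly reuse the same peaks, so staying inside so wide an interval says little about stability. The depth behind a peak is unknown.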

Other observations

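Which short words are frequent at Pax7 summits over all peaks was asked without choosing a motif first. The words could therefore include or overlap the 3 Pax motifs and the E-box. The 6-base words were ranked over all 20579 peaks by the difference, in percentage points, between their share of summit windows and of windows 500 bp to either side, counting a word and its reverse complement together. The E-box CAGCTG came first, with 15.7% against 4.56%, then GTCATG with 13.7% against 3.79% and the paired-box core GTCACG with 11.1% against 1.28%. Further down were GTCACA with 13.8% against 5.65% and CTAATT with 12.6% against 4.64%. Of the 31 peaks at the 5 genes, GTCATG was in 2 (6.45%), both at Eya2 and including its 11.55-fold peak. GTCACA was in 6 (19.4%), among them the 9.45-fold peak in intron 1 of Eya2, and CTAATT was in 7 (22.6%), among them the 5.93-fold peak beyond Dach1. The remaining words among the first 10 went both ways. TCATGG was in 16.1% of the 31 against 14.1% of all peaks, and AGCTGT in 19.4% against 15.7%. CATGGT was in 12.9% against 14.3%, TCATGC in 9.68% against 11.2% and TCACGG in 3.23% against 9.09%. The words were ranked on all peaks, the 31 included, and no test was made.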
